A study of Mus musculus with 9 samples.

Results

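The comparison described here asked what DTM changed in macrophages that were kept in tumour cell medium. It set 3 libraries of bone marrow-derived macrophages (BMMs) that spent 48 h in K7M2 conditioned medium with DTM (CM plus DTM) against 3 libraries of BMMs that spent 48 h in that medium without DTM (CM). BMMs are macrophages grown in culture from bone marrow precursors, and K7M2 is a cell line of mouse osteosarcoma whose used medium holds the proteins and metabolites it sheds. The labels do not spell out DTM and name no vehicle for it. The libraries were chosen by their labels and are 6 of the 9 in the series. The other 3 are of BMMs labelled control, whose culture time and medium the labels do not give, and they are used as background. The labels name no strain, allele or transgene for any group. Of 51826 genes in the table, 15429 had enough counts to be tested. Levels are given as counts per 1000000 counts of the library (CPM), after scaling for library size, in the order of libraries 1, 2 and 3 of each group.

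Macrophages in a tumour take up signals that tumour cells release. Interferon-stimulated genes, switched on through the STAT and IRF transcription factors, encode antiviral and immune proteins. NF-kB drives inflammatory cytokines and the chemokines that recruit neutrophils and monocytes. Liver X receptors sense oxidised sterols and switch on cholesterol export. Receptors such as Cx3cr1 are typical of resting tissue macrophages and are lost in many activated states.

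The libraries numbered 1 differed from the others in all 3 groups. Xist, the RNA that coats the inactive X chromosome of female cells, had 2886 counts in CM plus DTM 1, 8695 in CM 1 and 3288 in control 1, and 0 counts in the other 6 libraries. Those held 43084296 to 49532150 counts in all, and a count of 0 allows up to 3 counts in a library. Eif2s3y, a gene of the Y chromosome, had 178, 735 and 751 counts in CM plus DTM, 0, 932 and 914 counts in CM, and 132, 753 and 741 counts in control. Ddx3y, Kdm5d and Uty, also Y-linked, were likewise lowest in library 1 of each group, with 0 counts in CM 1. CM 1 thus held Xist and no count of the 4 Y-linked genes, CM plus DTM 1 and control 1 held both, and libraries 2 and 3 of each group held Y-linked counts without Xist. The labels say nothing of sex or of the animals, and nothing in them states whether each library of a group had its own culture, so p-values measure the spread between these libraries.

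CM plus DTM 1 and CM 1 also stood apart in the rest of their RNA. Each library was set against the mean log2 CPM of the other libraries of its group. This used 9909 genes that averaged 5 CPM or more over the 6 libraries. CM plus DTM 1 lay more than 2-fold above or below that mean for 20.9%, CM plus DTM 2 for 11.2% and CM plus DTM 3 for 6.3%. For CM 1, 2 and 3 the shares were 11.5%, 3.91% and 4.37%. Depth was even, at 44434428 to 47644645 counts in CM plus DTM and 44921305 to 50407973 counts in CM. The defining macrophage genes had counts in every library, but not all at an even level. Ptprc, the leukocyte gene of CD45, had 3.79, 76.9 and 48.9 CPM in CM plus DTM, against 151, 83.9 and 69.6 CPM in CM. Cebpa had 100, 165 and 153 CPM in CM plus DTM, against 6.68, 130 and 121 CPM in CM. The summed level of the 20 macrophage identity genes was 62400, 41500 and 41800 CPM in CM plus DTM, against 44400, 43800 and 45100 CPM in CM. Lyz2 made up most of each sum. The 3 CM plus DTM libraries lay above all 3 CM libraries for 6 of the 20 and below them for 2, Itgam and Mertk. Of all genes 16.7% lay above and 17.8% below. Itgam had 104, 347 and 86 CPM in CM plus DTM, against 608, 1250 and 1090 CPM in CM.

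**Figure D1:**
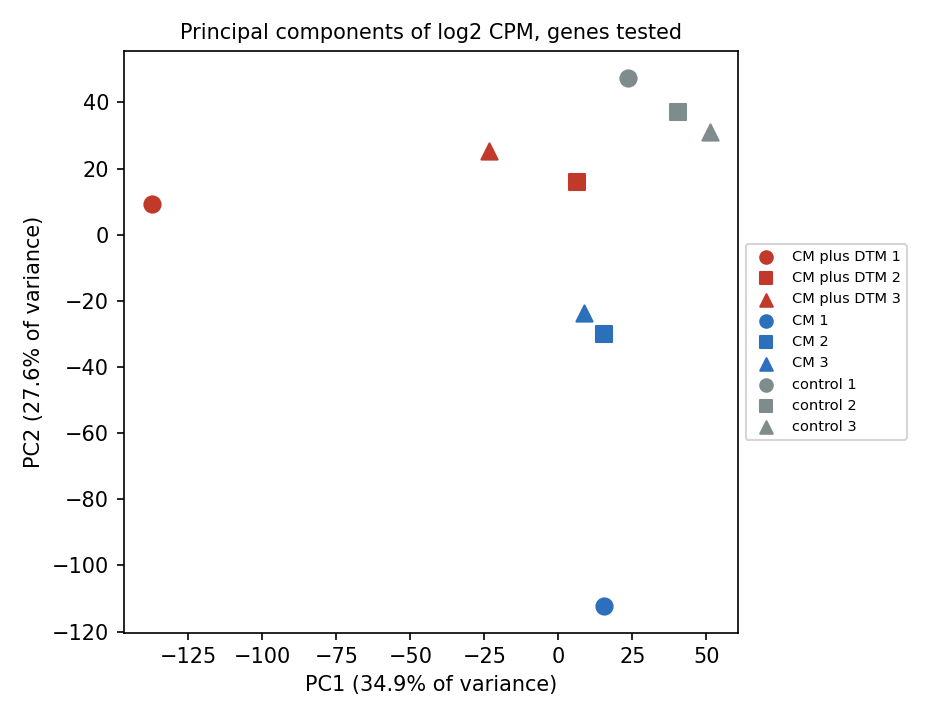
The first 2 principal components of log2 CPM over the genes tested, each axis labelled with its share of the variance. Points are libraries, coloured by group (CM plus DTM, CM, control) and shaped by library number. CM plus DTM 1 lies apart on the first component (34.9% of the variance) and CM 1 on the second (27.6%), while libraries 2 and 3 of each group lie near each other.

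With all libraries in 1 fit, 0 of 15429 genes passed an adjusted p of 0.05 by edgeR's quasi-likelihood test (percent called 0), and the lowest adjusted p was 0.0611. The count at an unadjusted p under 0.05 was 4372 (28.3%), with 14.3% of genes higher and 14% lower. Limma-voom called 0 genes, while DESeq2 called 2515 (16.1%), with 8.46% higher and 7.65% lower. The 3 CM plus DTM libraries lay above all 3 CM libraries for 2572 genes (16.7%) and below them for 2741 (17.8%). Within libraries 2 and 3 of each group, the 6 libraries that had Y-linked counts and no Xist, edgeR called 2697 of 15445 genes (17.5%). Of these, 1309 (8.48%) rose and 1388 (8.99%) fell in CM plus DTM. Without CM plus DTM 1 and CM 1 alone, edgeR called 776 of 15615 genes (4.97%), with 1.8% higher and 3.17% lower. The fit of libraries 2 and 3 was taken as the second one to report after the Xist counts were seen. It rests on 2 libraries a group: without CM 2 it called 48 genes, without CM 3 126, without CM plus DTM 2 3493 and without CM plus DTM 3 1063. Most of these calls, in lists as over all genes, were thus lost when either CM library was left out. For those fits list medians are given below, since each left 1 library in CM. Of 171 genes named by rule, 113 were called within libraries 2 and 3, as 17.5% of all genes were. The rules picked most of the 171 by their values in these libraries, so this share is no support. Of the 6 fits that left out 1 more library, 2 left out a control library only. A fit of all 9 libraries with the presence of Xist as a term called 1025 of 15429 genes, 566 higher and 459 lower. Of these, 935 were called with the same sign in the fit of libraries 2 and 3 (34.7% of its 2697). The term was 1 for library 1 of each group and 0 otherwise, so it took up only a shift that libraries 1 shared. Where CM plus DTM 1 and CM 1 left their groups in opposite directions it could not do so. A call lost there says nothing of Xist itself. Named genes called with this term included Gpr183, Slco4a1, Fcrls, Nanos1, Abcg1 and Mmp8. Not called with it were Cxcl3, Cxcl5, Cxcl2, Ppbp, Slfn4, Il1a, Gbp6, Tbl1xr1 and Gbp3.

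The pair of libraries 1 was not used in the fit of libraries 2 and 3. Of 2688 genes called there and tested in both fits, CM plus DTM 1 differed from CM 1 in the same direction for 2041 (75.9%), against 10245 of all 15296 genes (67%). For 269 of the 2688 called genes, CM plus DTM 1 differed from CM 1 by more than 2-fold in the opposite direction. The same held for 1797 of all 15296 genes. No test of one difference against the other is given, since each group has 1 library numbered 1.

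**Figure D2:**
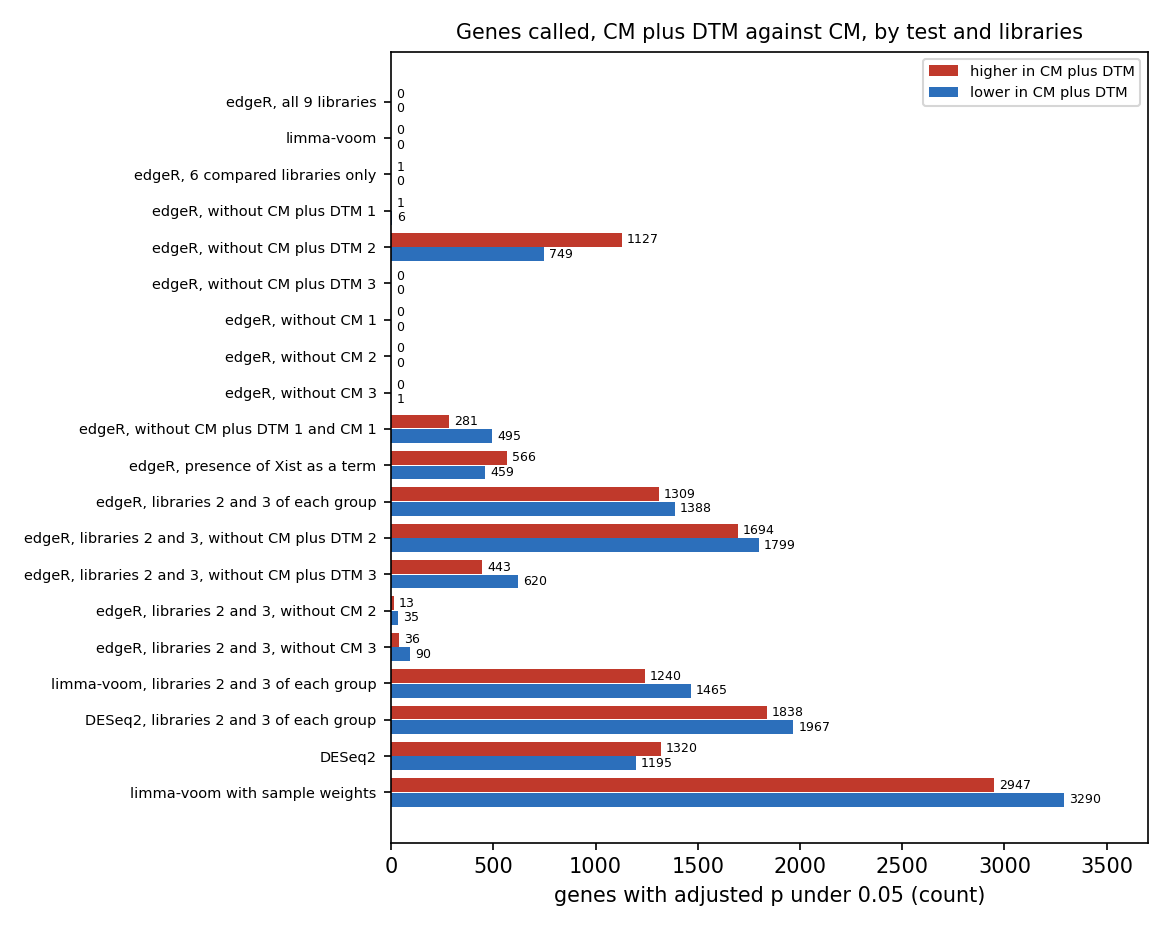
Number of genes with an adjusted p under 0.05 (horizontal axis, count) in CM plus DTM against CM, higher and lower in CM plus DTM, for each test and set of libraries. With all 9 libraries edgeR and limma-voom called 0 genes, and the fit of libraries 2 and 3 called 1309 higher and 1388 lower, against 13 and 35 without CM 2.

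Cx3cr1 and Fcrls, receptors of resting macrophages, were higher with DTM. Cx3cr1, the receptor of the chemokine fractalkine, stood at 1, 7.46 and 4.19 CPM in CM plus DTM, against 0.514, 0.421 and 0.288 CPM in CM, and at 130, 33.3 and 64.7 CPM in control. Every CM plus DTM library lay above every CM library, with CM plus DTM 1 the nearest to CM. The log2 difference was 4.04 (SE 0.49, edgeR adjusted p = 0.00843) in the fit of libraries 2 and 3, and 0.91 between the 2 libraries numbered 1. Over the fits that left out 1 more library, its adjusted p ran from 0.0115 to 0.08, and 4 of 6 called it. Fcrls, an Fc receptor-like gene typical of microglia, had 28.4, 12.3 and 10.8 CPM in CM plus DTM, against 6.76, 1.75 and 1.26 CPM in CM. It rose by 2.94 (SE 0.18, edgeR adjusted p = 0.00113) within libraries 2 and 3, and the difference was 2.06 in libraries 1. Leaving out 1 more library gave 2.72 to 3.19.

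Gpr183, a receptor for oxysterols that guides cell migration, had 20.8, 23.5 and 25 CPM in CM plus DTM, against 1.03, 5.09 and 5.13 CPM in CM. The CM plus DTM libraries were even and CM 1 was the lowest of the 6, and the log2 difference was 2.62 (SE 0.50, edgeR adjusted p = 0.0611) over all libraries and 2.25 (SE 0.12, edgeR adjusted p = 7.98e-04) within libraries 2 and 3. Nanos1, an RNA-binding protein gene known from germ cells, had 13.6, 27.6 and 31 CPM, against 3.85, 7.27 and 5.77 CPM in CM, and rose by 2.17 within libraries 2 and 3 (edgeR adjusted p = 0.00175). Ctla2b, a gene named for a cysteine protease inhibitor-like protein, had 144, 67.6 and 80.9 CPM, against 7.11, 24.5 and 23.9 CPM in CM. It rose by 1.62 within libraries 2 and 3 (edgeR adjusted p = 0.00299). In control these 3 genes stood at 47.5 to 222 CPM, above every CM and, apart from Ctla2b, every CM plus DTM library.

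Most interferon-stimulated genes fell within libraries 2 and 3, while CM plus DTM 1 stood above CM 1 for most of them. Of 53 tested, 42 fell and 0 rose in the fit of libraries 2 and 3, where 8.99% of all genes fell and 8.48% rose. The median log2 difference was -0.98, against -0.02 over all genes. In libraries 1, CM plus DTM lay above CM for 37 of the 53, with a median difference of 0.47. The 3 CM plus DTM libraries lay below all 3 CM libraries for 12 of the 53 and above them for 0. Of all genes 17.8% lay below in this way and 16.7% above. Leaving out 1 more library, 5 fell without CM 2, 10 without CM 3, 36 without CM plus DTM 3 and 41, with 1 rising, without CM plus DTM 2. With the presence of Xist as a term 5 of the 53 fell, at a median of -0.43, where 459 of all 15429 genes fell.

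Ifit1, which binds viral RNA and is named in the title of the series, had 45.7, 5.96 and 4.23 CPM in CM plus DTM, against 31, 24.8 and 19.9 CPM in CM. CM plus DTM 1 was the highest of the 6 libraries and CM plus DTM 2 and 3 the lowest. The log2 difference was -0.44 (SE 0.75, edgeR adjusted p = 0.735) over all libraries, -2.13 (SE 0.22, edgeR adjusted p = 0.00529) within libraries 2 and 3, and 0.56 between the libraries 1. Its adjusted p was 0.00486 to 0.0583 when 1 more library was left out, and 0.305 with the presence of Xist as a term (log2 difference -1.03). Slfn4, a Schlafen family gene of myeloid cells, had 292, 23.2 and 20.5 CPM in CM plus DTM, against 46.9, 195 and 188 CPM in CM. It fell by 3.13 within libraries 2 and 3 (SE 0.17, edgeR adjusted p = 7.98e-04), while CM plus DTM 1 was the highest library and lay 2.64 above CM 1 on the log2 scale. With Xist as a term its difference was -0.97 (edgeR adjusted p = 0.645).

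Some other interferon genes were lower in all 3 CM plus DTM libraries. Parp14, an ADP-ribosyltransferase, had 86, 94.8 and 76.9 CPM in CM plus DTM, against 224, 221 and 176 CPM in CM. The groups lay well apart, with a log2 difference of -1.27 (SE 0.24, edgeR adjusted p = 0.0611) over all libraries and -1.20 (SE 0.16, edgeR adjusted p = 0.00941) within libraries 2 and 3. Irgm1, a GTPase that acts against intracellular bacteria, had 126, 95.5 and 87.5 CPM, against 175, 179 and 169 CPM in CM. Sp100, a nuclear body protein, had 108, 123 and 115 CPM, against 150, 209 and 204 CPM in CM, and both fell within libraries 2 and 3 (log2 differences -0.93 and -0.80, edgeR adjusted p = 0.00755 and 0.0125). In the list of the interferon gamma program, 13 of 22 genes fell and 0 rose within libraries 2 and 3. The median there was -0.86, with -0.84 without CM 2 and -0.86 without CM 3. With Xist as a term 2 fell, where 459 of all 15429 genes fell. Of all genes 8.99% fell and 8.48% rose within libraries 2 and 3. The 3 CM plus DTM libraries lay below CM for 7 of the 22 and above for 1. Over all genes, 17.8% lay below and 16.7% above. CM plus DTM 1 lay above CM 1 for 13 of the 22. Gbp6, a guanylate-binding GTPase, had 12.5, 2.87 and 3.57 CPM in CM plus DTM, against 15.9, 20.2 and 18.7 CPM in CM, so CM plus DTM 1 lay close under the CM range and the other 2 far below it. Members of the Slfn, Gbp, Irgm and Ifi200 families are alike in sequence, and reads may have been divided among them.

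The promoters of interferon genes often carry an interferon-stimulated response element. Its core was searched here as GAAA, any 2 bases and GAAA again on both strands, in RefSeq windows from 250 bases before to 50 bases after the start of each gene (assembly GRCm38.p6). The letters occurred in the windows of 23 of 41 interferon-stimulated genes (56.1%), of 11 of 17 in the interferon gamma program (64.7%) and of 421 of 10470 genes tested that had a window (4.02%). They occurred in 83 of 1029 genes that fell within libraries 2 and 3 (8.07%) and in 32 of 911 that rose (3.51%). Shown, with these letters or their reverse complement in capitals, are the windows of the 4 most abundant members that fell in the fit without CM plus DTM 1 and CM 1 and held the letters, a choice made after their values were seen. They lie on the minus strand at chr5:120777610-120777909 (Oas3), chr4:40239776-40240075 (Ddx58), chr11:48871371-48871670 (Irgm1) and chr4:156200769-156201068 (Isg15).
Oas3: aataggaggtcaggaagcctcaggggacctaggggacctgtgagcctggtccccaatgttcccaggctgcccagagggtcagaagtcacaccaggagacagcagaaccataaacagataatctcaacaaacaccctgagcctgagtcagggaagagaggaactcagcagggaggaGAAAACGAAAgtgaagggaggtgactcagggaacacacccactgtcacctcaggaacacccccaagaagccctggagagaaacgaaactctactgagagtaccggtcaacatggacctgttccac
Ddx58: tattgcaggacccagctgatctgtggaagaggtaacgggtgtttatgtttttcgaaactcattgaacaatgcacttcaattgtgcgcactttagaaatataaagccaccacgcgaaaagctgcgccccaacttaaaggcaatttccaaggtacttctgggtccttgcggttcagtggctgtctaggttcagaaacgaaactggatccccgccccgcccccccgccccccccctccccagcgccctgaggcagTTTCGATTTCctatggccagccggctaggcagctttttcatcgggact
Irgm1: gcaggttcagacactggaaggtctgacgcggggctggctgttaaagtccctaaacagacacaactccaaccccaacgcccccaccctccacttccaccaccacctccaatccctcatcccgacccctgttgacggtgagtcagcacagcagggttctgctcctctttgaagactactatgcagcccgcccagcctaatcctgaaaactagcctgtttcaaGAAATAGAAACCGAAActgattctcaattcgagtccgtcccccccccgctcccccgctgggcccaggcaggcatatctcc
Isg15: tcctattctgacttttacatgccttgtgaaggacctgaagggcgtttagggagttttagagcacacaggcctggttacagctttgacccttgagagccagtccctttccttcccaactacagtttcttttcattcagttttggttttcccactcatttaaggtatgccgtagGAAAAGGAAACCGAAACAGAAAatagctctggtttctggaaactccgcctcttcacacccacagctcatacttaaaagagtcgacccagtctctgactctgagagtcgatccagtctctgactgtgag
There was 1 match in Oas3 and Ddx58, and there were 2 in Irgm1 and 3 in Isg15, where overlapping matches run together, and a match of letters is a description of the window and no binding site. Oas3, an enzyme that makes the activator of RNase L, had 333, 234 and 198 CPM in CM plus DTM, against 254, 429 and 398 CPM in CM. Ddx58, the RNA sensor RIG-I, had 178, 102 and 108 CPM, against 149, 187 and 181 CPM in CM. Isg15, a ubiquitin-like protein, had 207, 81.8 and 88.4 CPM, against 76.9, 164 and 160 CPM in CM. In all 3 the CM plus DTM 1 library lay above CM 1 and CM plus DTM 2 and 3 lay below CM 2 and 3, with log2 differences within libraries 2 and 3 of -0.94, -0.81 and -0.93 (edgeR adjusted p = 0.00924, 0.00941 and 0.0224).

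Chemokines that attract neutrophils were split between the libraries numbered 1 and the others. Cxcl3 had 573, 22.2 and 20.7 CPM in CM plus DTM, against 157, 515 and 581 CPM in CM, and 0.63 to 1.72 CPM in control. CM plus DTM 1 stood with CM 2 and 3, and CM plus DTM 2 and 3 stood far below them, at a log2 difference of -4.67 (SE 0.19, edgeR adjusted p = 7.98e-04) within libraries 2 and 3. Ppbp, a platelet and myeloid chemokine, had 360, 20.6 and 25.5 CPM in CM plus DTM, against 11.7, 218 and 209 CPM in CM. It fell by 3.21 within libraries 2 and 3 and was 4.94 higher in CM plus DTM 1 than in CM 1 on the log2 scale. Cxcl2 had 191, 5.94 and 5.82 CPM, against 176, 61.1 and 68.9 CPM in CM, and Cxcl5 had 5.92, 0.57 and 0.623 CPM, against 5.81, 10.4 and 11.5 CPM in CM. For both, the libraries numbered 1 were nearly level, while log2 differences within libraries 2 and 3 were -3.46 and -4.19 (edgeR adjusted p = 7.98e-04 and 0.00175). Leaving out 1 more library gave -4.76 to -4.58 for Cxcl3 and -3.37 to -3.04 for Ppbp. The differences were -3.55 to -3.38 for Cxcl2 and -4.27 to -4.11 for Cxcl5. None of the 4 was called with the presence of Xist as a term, a shift shared by libraries 1. The adjusted p with that term was 0.218 for Cxcl3, 0.538 for Ppbp, 0.151 for Cxcl2 and 0.0723 for Cxcl5 by edgeR.

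Of all genes, 8.99% fell and 8.48% rose within libraries 2 and 3. Of 25 chemokine and receptor genes, 13 fell and 2, Cx3cr1 and Cxcl14, rose there. The median of the list was -0.57 there, -0.72 without CM 2 and -0.55 without CM 3. With Xist as a term 0 fell and Cx3cr1 rose, where 459 of all 15429 genes fell and 566 rose. CM plus DTM 1 lay above CM 1 for 23 of the 25, at a median log2 difference of 1.07. Cxcl14, a chemokine of resting tissues, had 436, 114 and 114 CPM in CM plus DTM, against 28.1, 76.2 and 78.6 CPM in CM. Its groups did not overlap, and the difference was 0.56 within libraries 2 and 3 (SE 0.11, edgeR adjusted p = 0.0225) and 3.95 in libraries 1.

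Within libraries 2 and 3, 8.99% of all genes fell and 8.48% rose. Among 32 NF-kB targets, 11 fell and 3 (Clec4e, Irak3 and Marcksl1) rose there. The median of that list was -0.44 there, -0.4 without CM 2 and -0.47 without CM 3. With Xist as a term 3 fell and 1 rose, where 459 of all 15429 genes fell and 566 rose. Clec4e, a receptor of mycobacterial glycolipids, had 9.23, 12.1 and 11.1 CPM in CM plus DTM, against 162, 6.87 and 6.86 CPM in CM. CM 1 was far above the other libraries, and the log2 difference was 0.76 within libraries 2 and 3 but -2.44 over all libraries. Il1rn, the antagonist of interleukin 1, had 51.6, 42.1 and 33.5 CPM in CM plus DTM, against 123, 101 and 107 CPM in CM. All 3 libraries were lower by a like amount, with log2 differences of -1.38 (SE 0.19, edgeR adjusted p = 0.0611) over all libraries, -1.46 (SE 0.15, edgeR adjusted p = 0.00529) within libraries 2 and 3 and -1.25 in libraries 1. Tnfaip2, a gene induced by tumour necrosis factor, had 70.6, 63.3 and 39.5 CPM, against 414, 180 and 176 CPM in CM, and fell by 1.79 within libraries 2 and 3. Il1a, the cytokine interleukin 1 alpha, had 26.8, 3.57 and 4.53 CPM, against 22, 27 and 29.2 CPM in CM, so CM plus DTM 1 lay within the CM range and CM plus DTM 2 and 3 below it.

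Abcg1, Slco4a1 and the coagulation genes F5 and Vwf were lower in every CM plus DTM library than in any CM library. Abcg1, a cholesterol exporter and liver X receptor target, had 62.6, 30.8 and 29 CPM in CM plus DTM, against 348, 135 and 134 CPM in CM. The log2 difference was -2.33 (SE 0.44, edgeR adjusted p = 0.0611) over all libraries and -2.16 (SE 0.11, edgeR adjusted p = 7.98e-04) within libraries 2 and 3, with -2.47 in libraries 1. Of 20 liver X receptor targets, Abca1, Abcg1, Mylip and Scd1 fell and Fads1 rose within libraries 2 and 3. Their median was -0.34 there, -0.39 without CM 2 and -0.29 without CM 3. With Xist as a term 2 fell and 0 rose, where 459 of all 15429 genes fell and 566 rose. Of all genes 8.99% fell and 8.48% rose within libraries 2 and 3. Slco4a1, an organic anion transporter, had 34.1, 27.4 and 26.4 CPM, against 384, 103 and 118 CPM in CM. It fell by 2.04 within libraries 2 and 3 (SE 0.13, edgeR adjusted p = 0.00119). F5, coagulation factor V, had 2.81, 2.6 and 2.36 CPM, against 118, 14.9 and 11.4 CPM in CM, and Vwf, von Willebrand factor, had 7.25, 9.11 and 7.09 CPM, against 119, 19.2 and 16.2 CPM in CM. CM 1 was the highest library for both by a wide margin, and the log2 differences were -4.22 and -2.72 over all libraries but -2.40 and -1.13 within libraries 2 and 3 (edgeR adjusted p = 0.00417 and 0.0164).

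Spp1, osteopontin, had 13500, 8470 and 10200 CPM in CM plus DTM, against 37800, 19700 and 20800 CPM in CM, and 5020 to 6220 CPM in control. CM plus DTM lay between CM and control in all libraries, at a log2 difference of -1.11 (SE 0.12, edgeR adjusted p = 0.00602) within libraries 2 and 3. Mmp12, macrophage elastase, had 4180, 4630 and 5630 CPM, against 7660, 8500 and 8580 CPM in CM, and fell by 0.73 within libraries 2 and 3 (edgeR adjusted p = 0.0216). Mmp8, a collagenase also made by neutrophils, had 221, 158 and 142 CPM, against 355, 780 and 676 CPM in CM, and fell by 2.28 (edgeR adjusted p = 7.98e-04). Of 17 metalloproteinase and inhibitor genes, Adam8, Mmp12, Mmp13, Mmp8 and Timp3 fell and 0 rose. Their median was -0.49 there, -0.46 without CM 2 and -0.51 without CM 3. With Xist as a term 2 fell, where 459 of all 15429 genes fell. Over all genes, 8.99% fell and 8.48% rose within libraries 2 and 3. Gpnmb, a glycoprotein of lipid-laden macrophages, had 6180, 11700 and 10200 CPM, against 15600, 16000 and 16800 CPM in CM. It fell by 0.58 within libraries 2 and 3 (edgeR adjusted p = 0.0205).

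Mertk, a receptor that takes up dying cells, had 34.2, 43.2 and 32.7 CPM in CM plus DTM, against 105, 79.4 and 74 CPM in CM. The groups did not overlap, and Mertk fell by 1.01 within libraries 2 and 3 (SE 0.16, edgeR adjusted p = 0.0143). Of 19 scavenger and efferocytosis receptors 7 fell, and Gas6, a ligand of Mertk, and Marco rose. Among lysosomal genes 7 of 39 fell within libraries 2 and 3, where 8.99% of all genes fell and 8.48% rose. Psap, which encodes the saposins, had 7580, 17700 and 14700 CPM, against 19800, 24300 and 24500 CPM in CM, and fell by 0.59 (edgeR adjusted p = 0.0251). Of 20 osteoclast genes 7 fell, among them Atp6v0d2, a proton pump subunit, at 98.7, 84.9 and 105 CPM, against 328, 160 and 160 CPM in CM. The one that rose was Tnfrsf11a, the receptor RANK, at 97.4, 61.5 and 73.3 CPM, against 35.9, 49.1 and 47 CPM in CM. The medians within libraries 2 and 3 were -0.36 for scavenger, -0.15 for lysosomal and -0.45 for osteoclast genes. Without CM 2 they were -0.33, -0.19 and -0.45, and without CM 3 -0.42, -0.09 and -0.44. With Xist as a term 1 scavenger gene, 1 lysosomal gene and 2 osteoclast genes fell, where 459 of all 15429 genes fell.

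**Figure D3:**
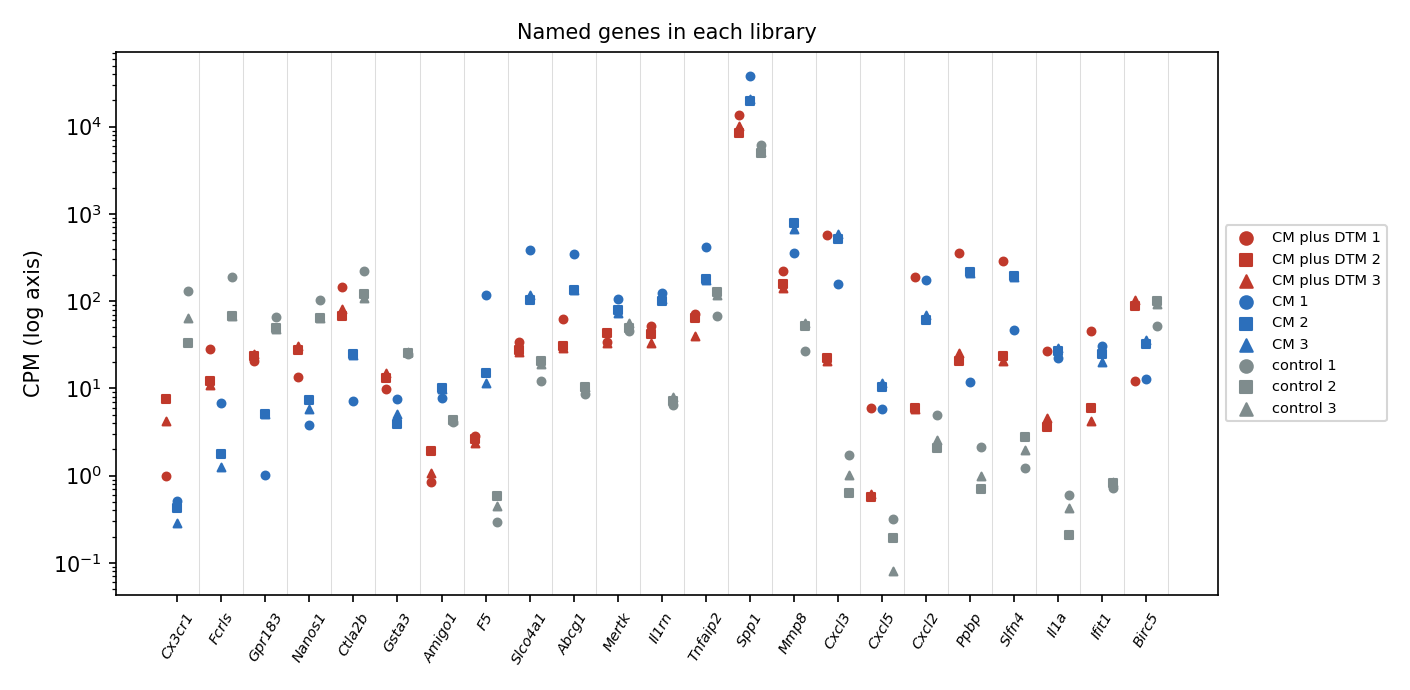
Level of 23 named genes in each library (vertical axis, CPM, logarithmic), with CM plus DTM left, CM in the middle and control right for each gene, and library numbers as shapes. For Cxcl3, Ppbp and Slfn4 the CM plus DTM 1 point lies far above CM plus DTM 2 and 3, while for Abcg1, F5 and Mertk the 3 CM plus DTM libraries all lie under the CM libraries.

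Genes of the respiratory chain and of ribosomes were mostly higher in all 3 CM plus DTM libraries. Of 77 respiratory chain and ATP synthase genes, the 3 CM plus DTM libraries lay above all 3 CM libraries for 67 and below them for 0, where 16.7% of all genes lay above and 17.8% below, with a median log2 difference of 0.80 over all libraries. Within libraries 2 and 3, 36 rose and 0 fell, with a median of 0.54, where 8.48% of all genes rose. The median difference in libraries 1 was 1.29. By library, the median of ATP synthase subunits lay at 0.94, 0.56 and 0.75 in CM plus DTM, against -0.26, 0.14 and 0.17 in CM, each relative to the CM mean on the log2 scale. Cox5a, a subunit of cytochrome c oxidase, had 496, 198 and 271 CPM, against 118, 116 and 152 CPM in CM. Atp5c1, the central shaft of ATP synthase, had 311, 289 and 317 CPM, against 126, 189 and 180 CPM in CM. These rose by 0.81 and 0.72 within libraries 2 and 3 (edgeR adjusted p = 0.039 and 0.0152). The median of the 77 genes was 0.5 without CM 2, 0.6 without CM 3 and 0.41 without CM plus DTM 3. With Xist as a term 27 of them rose, where 566 of all 15429 genes rose.

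Of 81 cytosolic ribosomal protein genes 70 lay above CM in all 3 libraries, and 54 rose and 0 fell within libraries 2 and 3. Over all genes, 16.7% lay above CM in this way and 8.48% rose within libraries 2 and 3. Rps4x, a protein of the small subunit, had 1680, 1350 and 1510 CPM in CM plus DTM, against 833, 862 and 818 CPM in CM. It rose by 0.77 within libraries 2 and 3 (edgeR adjusted p = 0.0145). The median of the 81 was 0.64 within libraries 2 and 3, 0.6 without CM 2, 0.65 without CM 3 and 0.53 without CM plus DTM 3. Of 78 mitochondrial ribosomal genes 56 lay above CM in all libraries and 26 rose within libraries 2 and 3. Their median was 0.4 there, 0.38 without CM 2 and 0.45 without CM 3. With Xist as a term 42 of the 81 and 16 of the 78 rose, where 566 of all 15429 genes rose. Of the 12 genes the naming rule gave as highest over all libraries, 8 were copies of ribosomal protein genes such as Rps13-ps1 and Rpl39-ps, whose reads cannot be told from those of the parent genes with certainty.

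The differences varied with the length of the transcript. Genes whose longest annotated transcript was under 1 kb had a median log2 difference of 0.81 (1667 genes), those of 1 to 2 kb 0.31 (2673 genes), those of 2 to 4 kb -0.02 (5718 genes) and those over 4 kb -0.35 (4944 genes). The order held in each CM plus DTM library, with 1.19, 0.36 and 0.68 under 1 kb and -0.43, -0.21 and -0.34 over 4 kb, relative to the CM mean. Control 1 and 2 also fell with length, and control 3 did not. The control libraries lay at 0.43, 0.27 and -0.07 under 1 kb and at -0.14, -0.04 and -0.02 over 4 kb. Across 15002 genes Pearson's r of log2 length with the difference was -0.39 over all libraries, -0.32 within libraries 2 and 3 and -0.30 in libraries 1, given as a description since genes are not replicates. The 88 ribosomal and respiratory genes under 1 kb had a median of 0.84, against 0.80 for the other 1579 genes under 1 kb. With the length trend taken out as an offset, 8 of the 77 respiratory genes and 21 of the 81 cytosolic ribosomal genes rose within libraries 2 and 3, with medians of 0.22 and 0.29. The interferon-stimulated list did not move in this way, with 45 falling and a median of -0.94. Of all 15021 genes in that fit, 930 rose and 923 fell. RNA length profiles or fragment sizes were not used here, so the part of RNA quality in these differences was not tested.

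**Figure D4:**
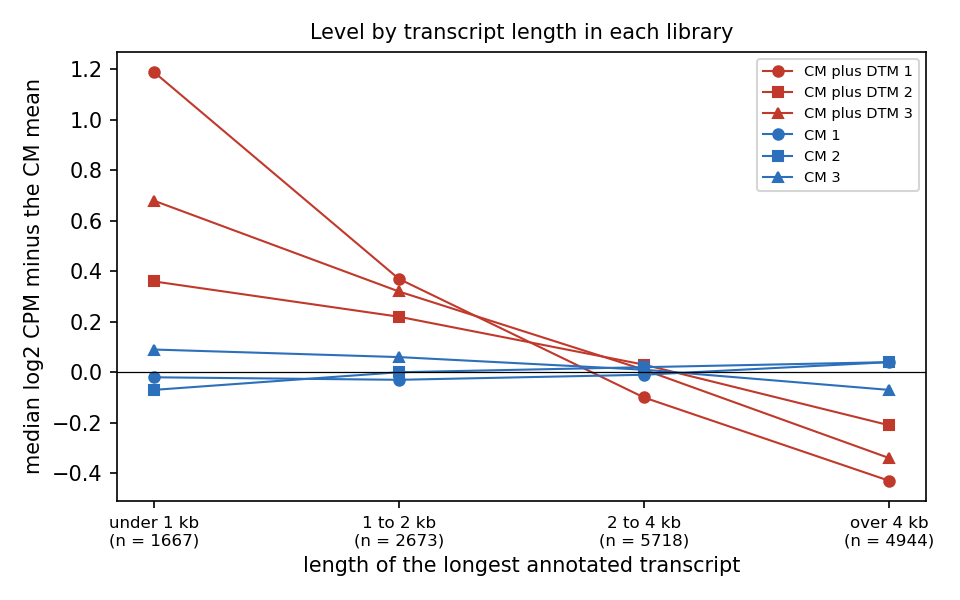
Median log2 CPM minus the CM mean (vertical axis) over genes grouped by the length of their longest annotated transcript (horizontal axis, 4 classes with their numbers of genes), 1 line a library. The 3 CM plus DTM lines fall with length, from 1.19, 0.36 and 0.68 under 1 kb, while the CM lines stay between -0.07 and 0.09. The control libraries, of which control 1 and 2 also fell with length, are not drawn.

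Most cell division genes rose with DTM within libraries 2 and 3, while CM plus DTM 1 stood below CM 1 for most of them. Of 60 DNA replication and mitosis genes, 40 rose and 0 fell within libraries 2 and 3. Of all genes 8.48% rose and 8.99% fell there. For 0 of the 60 did the 3 CM plus DTM libraries lie apart from CM, as they did for 34.4% of all genes. In libraries 1, CM plus DTM lay below CM for 50 of the 60, with a median log2 difference of -0.75. Birc5, the mitotic protein survivin, had 12.3, 87.6 and 103 CPM in CM plus DTM, against 12.8, 32.4 and 35.7 CPM in CM, and 51.9, 100 and 93.4 CPM in control. Library 1 was the lowest of each group, and Birc5 rose by 1.49 within libraries 2 and 3 (SE 0.13, edgeR adjusted p = 0.00335). Ube2c, which hands ubiquitin to mitotic cyclins, had 18, 164 and 164 CPM, against 22, 56.1 and 67 CPM in CM. Pcna, the sliding clamp of DNA synthesis, had 306, 615 and 666 CPM, against 205, 395 and 445 CPM in CM, and was higher in CM plus DTM at each library number. It rose by 0.61 within libraries 2 and 3 (edgeR adjusted p = 0.0185), with 0.58 in libraries 1. The median of the 60 genes was 0.62 within libraries 2 and 3, 0.63 without CM 2 and 0.66 without CM 3. With the presence of Xist as a term 0 of the 60 rose, where 566 of all 15429 genes rose.

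Cholesterol synthesis and antioxidant genes also included members that rose within libraries 2 and 3. Of 27 cholesterol synthesis genes 12 rose and 0 fell within libraries 2 and 3, while CM plus DTM 1 lay below CM 1 for 21. Ebp, a sterol isomerase, had 64.2, 82 and 88.5 CPM in CM plus DTM, against 56.3, 51.6 and 60.6 CPM in CM, and Nsdhl, a sterol dehydrogenase, had 29.4, 32.3 and 34 CPM, against 25.5, 23.3 and 22.8 CPM in CM. Both lay above CM in all libraries and rose by 0.61 and 0.53 within libraries 2 and 3 (edgeR adjusted p = 0.0238 and 0.0341). Of 25 NRF2 targets 12 rose and 0 fell within libraries 2 and 3. Gsta3, a glutathione transferase, had 9.82, 13.3 and 15.1 CPM, against 7.51, 3.9 and 5.02 CPM in CM, and rose by 1.67 (SE 0.17, edgeR adjusted p = 0.00532). Txnrd1, thioredoxin reductase, had 384, 523 and 521 CPM, against 383, 378 and 366 CPM in CM, with the libraries numbered 1 level. Of all genes 8.48% rose within libraries 2 and 3. The medians there were 0.36 for cholesterol synthesis genes and 0.35 for NRF2 targets. They were 0.44 and 0.35 without CM 2, and 0.36 and 0.47 without CM 3. With Xist as a term 0 cholesterol synthesis genes and 2 NRF2 targets rose, where 566 of all 15429 genes rose.

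**Figure D5:**
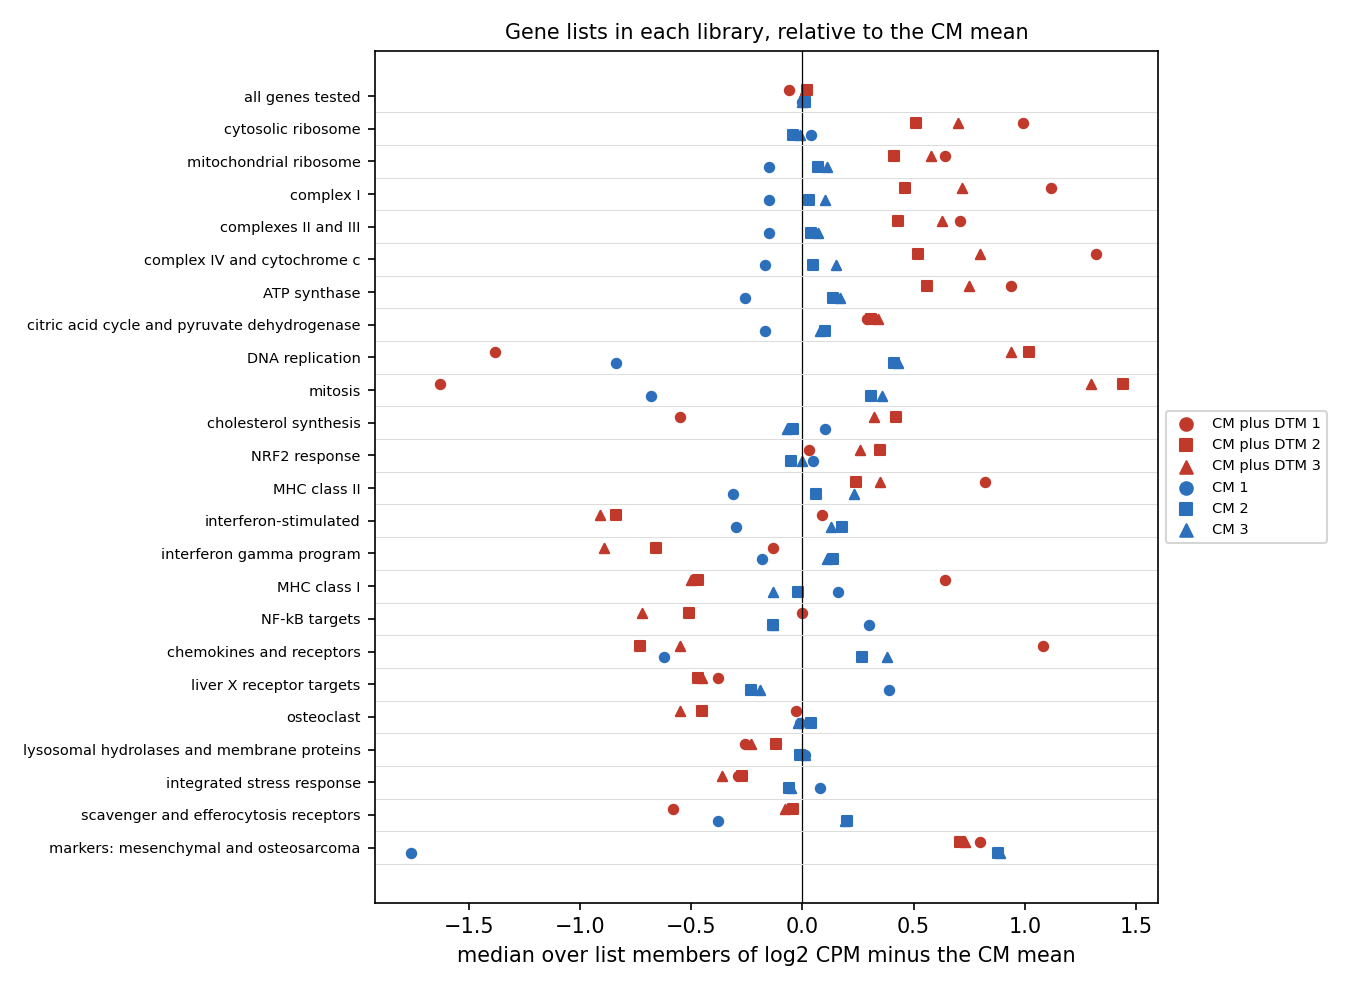
Median over the members of each gene list of log2 CPM minus the CM mean (horizontal axis), with the 3 CM plus DTM libraries above the 3 CM libraries in each row and library numbers as shapes. Respiratory chain and ribosome lists lie right of CM in all 3 CM plus DTM libraries, whereas for DNA replication, mitosis, chemokines and interferon-stimulated genes CM plus DTM 1 lies on the other side from CM plus DTM 2 and 3.

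Antigen presentation and checkpoint genes moved in part. Of 17 MHC class I genes 10 fell and 0 rose within libraries 2 and 3, where 8.99% of all genes fell and 8.48% rose. The median of the 17 was -0.45 there, -0.42 without CM 2 and -0.49 without CM 3. With Xist as a term 2 of the 17 fell, where 459 of all 15429 genes fell. CM plus DTM 1 lay above CM 1 for 9. Nlrc5, the activator of class I genes, had 36.4, 27.7 and 22.9 CPM in CM plus DTM, against 71.8, 58.1 and 48.8 CPM in CM, and fell by 1.08 within libraries 2 and 3 (edgeR adjusted p = 0.0106). Of 10 MHC class II genes 0 rose and Ctss, the protease of the class II pathway, fell. Ifi30, a lysosomal thiol reductase of that pathway, had 385, 395 and 426 CPM, against 215, 306 and 361 CPM in CM. Its log2 difference was 0.30 (SE 0.12, edgeR adjusted p = 0.121) within libraries 2 and 3, which turned to -0.08 with the length offset. Of 22 checkpoint and costimulation genes 7 fell and Icosl, Siglece, Siglecg and Vsir rose within libraries 2 and 3. Their median was -0.18 there, -0.23 without CM 2 and -0.18 without CM 3. With Xist as a term 0 of the 22 fell and 1 rose, where 459 of all 15429 genes fell and 566 rose. Icosl, the ligand of the T cell receptor ICOS, had 20.8, 25.6 and 22.4 CPM, against 12.3, 14.7 and 14.6 CPM in CM, and Slamf7, an inhibitory and phagocytic receptor, had 36.2, 42.6 and 43.9 CPM, against 170, 76.1 and 71.2 CPM in CM. The groups did not overlap for either, at log2 differences of 0.71 and -0.77 within libraries 2 and 3 (edgeR adjusted p = 0.0176 and 0.0115). With Xist as a term the edgeR adjusted p was 0.0438 for Icosl and 0.0658 for Slamf7.

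The stress, growth factor and alternative activation lists held genes called in both directions. Of 35 integrated stress response genes 7 fell and Slc7a5 rose within libraries 2 and 3, and Atf4, its main transcription factor, had 248, 205 and 203 CPM in CM plus DTM, against 406, 255 and 269 CPM in CM. Of 22 p53 targets, Bax, Cdkn1a, Gtse1, Phlda3 and Sesn1 rose and Plk2 fell. Bax, which permeabilises mitochondria in apoptosis, had 317, 166 and 206 CPM, against 132, 110 and 105 CPM in CM, and Cdkn1a, the cell cycle inhibitor p21, had 725, 606 and 556 CPM, against 367, 440 and 448 CPM in CM. Both lay above CM in all libraries, and the log2 differences within libraries 2 and 3 were 0.79 and 0.39 (edgeR adjusted p = 0.0235 and 0.0387). Csf1, the growth factor of macrophages, had 170, 134 and 129 CPM, against 278, 189 and 205 CPM in CM, and fell by 0.58 (edgeR adjusted p = 0.0173). Of 22 growth factor genes, 9 fell and Gas6, Pdgfb and Plau rose. Of 20 alternative activation genes 12 fell and Il10 rose, where 8.99% of all genes fell and 8.48% rose. The medians of the stress, p53, growth factor and alternative activation lists there were -0.23, -0.12, -0.44 and -0.53. Without CM 2 they were -0.2, -0.18, -0.45 and -0.51, and without CM 3 -0.22, -0.14, -0.38 and -0.56. With Xist as a term 2 stress response, 1 p53, 2 growth factor and 3 alternative activation genes fell and 2 p53 targets rose. With that term 459 of all 15429 genes fell and 566 rose. Mrc1, the mannose receptor, had 239, 362 and 309 CPM, against 405, 477 and 427 CPM in CM.

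Several genes that lay furthest below CM had no list. Amigo1, a neuronal adhesion protein, had 0.839, 1.92 and 1.07 CPM in CM plus DTM, against 7.67, 10.1 and 9.84 CPM in CM, at a log2 difference of -2.84 (SE 0.34, edgeR adjusted p = 0.0611) over all libraries and -2.73 (SE 0.28, edgeR adjusted p = 0.00539) within libraries 2 and 3. Nktr, a cyclophilin-related protein, had 4.19, 10.3 and 5.33 CPM, against 54, 32.5 and 35.3 CPM in CM, and Uvrag, which acts in autophagy, had 6.87, 22.4 and 9.71 CPM, against 80, 88.3 and 79.4 CPM in CM. Kif13b, a kinesin motor, had 3.46, 10.9 and 3.8 CPM, against 46.2, 43.5 and 26.5 CPM in CM. In these 3 genes CM plus DTM 2 lay nearest to CM and the groups were far apart, with log2 differences within libraries 2 and 3 of -2.11, -2.38 and -2.25 (edgeR adjusted p = 0.0101, 0.0249 and 0.0254). Tbl1xr1, a subunit of transcription repressor complexes, had 80.8, 10.9 and 10.1 CPM, against 80.9, 60.1 and 58.7 CPM in CM, so it was level in libraries 1 and fell by 2.50 within libraries 2 and 3 (edgeR adjusted p = 7.98e-04). Mfap3, a microfibril-associated protein, had 63.5, 57.1 and 59.8 CPM, against 8.69, 10.2 and 11.2 CPM in CM, but 59.6, 64.1 and 7.39 CPM in control, so it varied as widely among untreated libraries.

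Markers of other cells set CM 1 and CM plus DTM 1 apart from the other libraries. The summed level of 20 neutrophil markers was 1510, 749 and 543 CPM in CM plus DTM, against 394, 1100 and 1020 CPM in CM. Mmp8 alone sets the order of libraries 2 and 3 in that sum, since the other 19 markers summed to 1290, 590 and 401 CPM, against 38.9, 317 and 347 CPM in CM. Ngp and Ltf, neutrophil granule proteins, and Camp, an antimicrobial peptide, had 0 counts in CM 1. Camp had 49.9, 12 and 12 CPM in CM plus DTM, against 0, 2.27 and 2.79 CPM in CM. It rose by 2.25 within libraries 2 and 3 (edgeR adjusted p = 0.00941), as did Ngp by 0.71 (edgeR adjusted p = 0.0462). Of 19 neutrophil markers tested these 2 rose and Mmp8 fell there, where 8.48% of all genes rose. Leaving out 1 more library gave 2.1 to 2.4 for Camp and 0.43 to 0.95 for Ngp. By edgeR their adjusted p was 0.125 and 0.505 with Xist as a term, and 0.0101 and 0.252 with the length offset. The summed level of 28 mesenchymal and osteosarcoma markers was 2630, 2960 and 2790 CPM, against 473, 2750 and 2860 CPM in CM, with CM 1 alone low. Acta2, smooth muscle actin, had 614, 707 and 723 CPM, against 36.6, 396 and 485 CPM in CM. Of 26 tested in this list, Acta2 and Tagln rose and Col6a2, Fn1, Pdgfra, Pdgfrb and Vcan fell within libraries 2 and 3. Of all genes 8.48% rose and 8.99% fell there. With Xist as a term 0 of the 26 were called, where 566 of all 15429 genes rose and 459 fell. Lymphocyte markers summed to 7.57 to 10.3 CPM, against 6.1 to 11.6 CPM in CM, with 16 of 20 under 1 CPM and 9 at 0 in all 6 libraries. Of 23 dendritic, mast, erythroid and megakaryocyte markers 20 were under 1 CPM, and Pf4, a platelet chemokine also made by macrophages, had 12800, 1700 and 2010 CPM, against 440, 2710 and 2820 CPM in CM. In bulk RNA fewer cells of a type and less RNA per cell cannot be told apart, and the part of these cells in the other results was not tested.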

How the data were processed

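The labels' protocols give an mRNA library kit and sequencing on a DNBSEQ-T7 of RNA taken with TRIzol. The deposited table holds whole-number read counts, 1 row a gene symbol and 1 column for each of 9 libraries. The submitters' processing notes list Trimmomatic 0.36, FastQC 0.11.2, HISAT2 2.1.0, DESeq2 1.12.4 and 2 builds, GRCh38 and mm39, without saying what each was used for. How reads were counted, on which annotation and with which strand setting is not given in the sources used here. Overlapping or antisense genes and near-identical copies are therefore uncertain.

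From these counts, 15429 genes passed edgeR's filterByExpr and were scaled by TMM. All 9 libraries entered 1 fit by group (edgeR 4.0.16 under R 4.3.3, functions glmQLFit at default settings and glmQLFTest), with Benjamini-Hochberg adjustment over all genes and a threshold of 0.05. The SE of a log2 difference was taken as its absolute value over the root of F. CPM used the scaled library sizes, and log2 CPM a prior count of 2. The libraries and gene lists were chosen with earlier results of these data known. Named genes were Ifit1, Cx3cr1, the 12 highest and 12 lowest with a mean of at least 5 CPM, groups apart and an unadjusted p under 0.05, the 10 highest and 10 lowest called without CM plus DTM 1 and CM 1, and from each list up to 4 of the most abundant members with groups apart, or otherwise 2. Members named as called in counts of 5 or fewer, and Oas3, Ddx58, Isg15, Pf4, Lyz2, Itgam, Ptprc, Cebpa, Xist and the Y-linked genes, were named after their values were seen. Unnamed clones were counted and not named. The result of 1 gene is not reported here. Transcript length was that of a gene's longest GENCODE vM21 transcript, matched by symbol for 97.2% of genes tested. The scripts were tested on simulated data.

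Alternatives were DESeq2 1.42.0, limma-voom (limma 3.58.1) with and without sample weights, other scaling and filters, library numbers as a block and each library left out. Chosen after seeing the data were the length offset, Xist as a term, and the other tools and left-out libraries within libraries 2 and 3. The main fit had no block by number, since the labels do not say what the numbers share. Deviations from the group mean correlated weakly between same-numbered CM plus DTM and CM libraries, at 0.127, 0.142 and 0.097. The libraries numbered 1 nevertheless had Xist in common.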

Additional observations from a re-analysis of the deposited data

How the results depend on the processing

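With all 9 libraries, edgeR called 0 genes under RLE and upper quartile scaling, without a count filter and with a filter at 1 CPM. Limma-voom also called 0. Total count scaling called 1 gene (0 higher, 1 lower), the 6 compared libraries alone 1 (1 higher, 0 lower) and edgeR's newer dispersion setting 6 (2 higher, 4 lower). DESeq2 called 2515 (1320 higher, 1195 lower) and limma-voom with sample weights 6237 (2947 higher, 3290 lower). With the replicate block 0 genes were called, with 4275 at an unadjusted p under 0.05, against 4372 without it. Deviations of same-numbered CM plus DTM and CM libraries correlated at 0.127, 0.142 and 0.097, although the libraries numbered 1 had Xist in common. Leaving out 1 library in turn gave 0 to 1876 genes called (0 to 1127 higher, 0 to 749 lower), and the highest count came without CM plus DTM 2. Without CM plus DTM 1 and CM 1, 776 were called (281 higher, 495 lower), or 483 with the length offset (219 higher, 264 lower). Without library 1 of all 3 groups 2697 were called (1309 higher, 1388 lower). In those 6 libraries limma-voom called 2705 (1240 higher, 1465 lower), DESeq2 3805 (1838 higher, 1967 lower), the length offset 1853 (930 higher, 923 lower) and the fit of CM plus DTM and CM alone 1925 (1046 higher, 879 lower). With 1 more library left out, edgeR called 3493 without CM plus DTM 2 (1694 higher, 1799 lower), 1063 without CM plus DTM 3 (443 higher, 620 lower), 48 without CM 2 (13 higher, 35 lower), 126 without CM 3 (36 higher, 90 lower), 1635 without control 2 (791 higher, 844 lower) and 1638 without control 3 (793 higher, 845 lower). A group left with 1 library was assumed to vary like the others. The presence of Xist as a term gave 1025 (566 higher, 459 lower). The cause of these shifts was not tested. Log2 differences changed sign when 1 library was left out for Cxcl2 (-4.16 to 0.05), Ppbp (-2.72 to 0.41), Slfn4 (-2.76 to 0.16), Mcm6 (-0.14 to 0.62) and Ifit1 (-2.36 to 0.05), each with CM plus DTM and CM overlapping in the fit of 9 libraries. With the length offset they changed sign for Cox4i1 (-0.03), mt-Co2 (-0.24), mt-Nd3 (-0.08), Rplp1 (-0.10), Ifi30 (-0.06), H2-DMb1 (-0.05), Ftl1 (-0.02), Sdf2l1 (-0.03) and Tyrobp (-0.01). With the offset and without CM plus DTM 1 and CM 1, sign changed for Cox8a (-0.03), mt-Co2 (-0.02), mt-Nd6 (-0.16), Rplp1 (-0.08), Ifi30 (-0.09), H2-DMb1 (-0.03), Nfkb1 (0.01), Ldha (-0.08), Mif (-0.16), Pfkp (0.06), Aars (0.02), Timp1 (-0.10), C1qc (-0.11), C1qa (-0.10) and Tyrobp (-0.07). Without library 1 of all groups these were Cox8a (-0.02), mt-Co2 (-0.02), mt-Nd6 (-0.15), Rplp1 (-0.07), Ifi30 (-0.08), H2-DMb1 (-0.02), Nfkb1 (0.01), Ldha (-0.08), Mif (-0.15), Pfkp (0.06), Aars (0.02), Timp1 (-0.09), C1qc (-0.11), C1qa (-0.09) and Tyrobp (-0.07). None of these values of a changed sign passed an adjusted p of 0.05. The length offset, the Xist term and the other fits of libraries 2 and 3 were chosen after seeing the data.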

Other observations

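Some genes differed widely among the control libraries themselves. Of 6358 genes with a control mean of at least 20 CPM, 31 differed by at least 4-fold between control libraries. Egr1, an immediate early transcription factor, had 203, 3.46 and 3.76 CPM in CM plus DTM, 23.4, 4.67 and 3.78 CPM in CM, and 127, 4.5 and 5.6 CPM in control, so library 1 was the highest of each group. Gdf3, a growth factor of the TGF-beta family, had 92.7, 8.98 and 10.4 CPM in CM plus DTM, 38.1, 6.38 and 5.77 CPM in CM, and 82, 10.4 and 9.14 CPM in control, in the same order. Both genes were chosen after their values were seen.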
